A study of Mus musculus with 3 samples.

Results

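The T cell receptor (TCR) complex and the proximal signalling proteins behind it were followed in follicular regulatory T (Tfr) cells sorted from spleen, with Rptor deleted or intact. Tfr cells are Foxp3+ T cells that restrain germinal centre responses. The genes were a list of 42 symbols, and every probe set annotated to a single symbol of the list was used. Of the 42 genes, 41 had such a probe set, with 97 probe sets in all, among 12725 genes tested. Lck, the kinase that starts the cascade, was not analysed here. All 41 genes passed the filter on dim signals, on 87 of the 97 probe sets.

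The Rptor-null group was made of C57BL/6 mice with CD4-Cre and a floxed Rptor gene, and the other group of wild-type (WT) C57BL/6 mice. Rptor encodes raptor, the subunit that defines the kinase complex mTORC1, and CD4-Cre acts from the thymic stage at which CD4 first appears, so other T cells of these mice also carried the deletion. Both groups were immunized with OVA and sampled on day 8, and Tfr cells were sorted on CD4, CD44, GITR, CD25 and CXCR5 after lineage depletion. The Rptor-null group was 2 arrays, each of RNA pooled from 8 mice, and the WT group was 1 array of RNA pooled from 4 mice. The error of WT values could therefore not be measured. In every test the spread between the 2 Rptor-null arrays stood in for it, each gene's own spread being weighted with that of all genes.

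When a T cell meets its antigen, Lck phosphorylates the CD3 and zeta chains of the receptor, and the kinase ZAP-70 docks there. ZAP-70 then phosphorylates the adaptors LAT and SLP-76, which gather phospholipase C-gamma 1, Vav1 and other partners into a signalling platform. From this platform run the calcium and NFAT branch, the Ras branch and the NF-kB branch, and phosphatases, ubiquitin ligases and SLAP adaptors dampen the signal at several steps. Regulatory T cells need TCR signals to keep their suppressive programme.

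The Rptor-null pools had lower signal for most genes of the receptor complex. Cd3g, Cd3d and Cd247 of the receptor chains, the accessory receptor genes Cd2, Cd5 and Cd6, and the adaptor gene Lat were between 1.49-fold and 1.94-fold lower than in WT, while genes of the kinases and of the downstream branches did not pass the test on their brightest probe sets. The genes tested were few, with 4 for the kinases and 7 and 2 for the branches. Their contrast with the receptor genes was not tested. In all, 12 of the 41 genes were lower, 0 were higher and 29 did not pass, by limma with Benjamini-Hochberg adjustment over all genes at a threshold of 0.05. At an unadjusted p under 0.05, 18 were lower and 2 higher, against 21.7% and 8.11% of all genes tested. After adjustment, 11.1% of all genes were lower and 3.93% were higher, that is 1409 and 500 genes, which became 695 and 524 after quantile normalization. The TCR genes were mostly bright: 30 of the 41 lay in the brightest 20% of genes, where 33.3% of the 30 were lower, against 22.0% of all 2545 genes there. At least 1.5-fold lower signal in both Rptor-null arrays was found for 8 of the 41 genes, against 5.12% of all genes, and 0 were as much higher, against 2.25%.

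The DNA upstream of 5 genes is shown: the receptor chain genes that fell (Cd3g, Cd3d and Cd247), Cd3e, which did not pass although its neighbours fell, and Lat, the gene of the scaffold on which the platform is built. The sequences are RefSeq's for GRCm38.p6, 250 bases up to the annotated start on the gene's own strand. Cd3g lies at chr9:44980432-44980681 (minus strand), Cd3d at chr9:44981536-44981785 (plus strand), Cd3e at chr9:45009612-45009861 (minus strand), Cd247 at chr1:165788431-165788680 (plus strand) and Lat at chr7:126369569-126369818 (minus strand). Capitals mark CAGGTG or its reverse complement, the letters of the E box that E proteins such as E2A bind.
Cd3g: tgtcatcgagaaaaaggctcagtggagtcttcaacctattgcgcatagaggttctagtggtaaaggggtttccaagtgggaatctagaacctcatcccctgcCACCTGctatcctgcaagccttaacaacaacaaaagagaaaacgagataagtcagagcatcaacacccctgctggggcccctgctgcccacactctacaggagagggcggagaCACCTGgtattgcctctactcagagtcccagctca
Cd3d: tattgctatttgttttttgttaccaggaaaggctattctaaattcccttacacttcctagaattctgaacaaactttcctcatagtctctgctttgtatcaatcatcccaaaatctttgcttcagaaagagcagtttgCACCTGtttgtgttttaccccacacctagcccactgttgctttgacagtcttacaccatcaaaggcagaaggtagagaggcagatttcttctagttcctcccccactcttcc
Cd3e: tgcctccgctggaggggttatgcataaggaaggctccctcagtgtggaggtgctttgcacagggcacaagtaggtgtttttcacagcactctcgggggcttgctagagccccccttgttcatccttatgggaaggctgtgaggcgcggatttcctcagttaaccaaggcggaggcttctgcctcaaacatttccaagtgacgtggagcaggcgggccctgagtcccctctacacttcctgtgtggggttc
Cd247: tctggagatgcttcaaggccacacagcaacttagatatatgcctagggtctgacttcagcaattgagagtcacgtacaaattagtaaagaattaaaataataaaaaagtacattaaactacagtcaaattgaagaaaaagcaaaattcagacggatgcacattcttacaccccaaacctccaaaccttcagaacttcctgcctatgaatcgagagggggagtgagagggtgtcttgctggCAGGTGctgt
Lat: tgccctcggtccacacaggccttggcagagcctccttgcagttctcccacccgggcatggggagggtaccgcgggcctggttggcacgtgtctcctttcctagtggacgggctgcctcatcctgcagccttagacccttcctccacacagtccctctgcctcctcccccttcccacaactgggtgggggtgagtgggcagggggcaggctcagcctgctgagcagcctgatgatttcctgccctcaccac

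The letters occurred in the stretches of Cd3g, Cd3d and Cd247 and did not occur in those of Cd3e and Lat. Over the 35 genes of the list with a promoter in the table, 14 had them in at least 1 promoter of the table. Counted by promoter, 30.0% of the 50 promoters of these genes held them, against 17.2% of all 32851 promoters. The ETS core GGAAG was in 74% against 64.1%, the RUNX letters TGTGGT in 16% against 14%, the GATA letters AGATAA in 10% against 9.99%, and TATAAA in 8.0% against 12.4%. All were searched on both strands, alternative promoters of a gene can overlap, and these shares are descriptions without a test. In the same annotation Cd3g and Cd3d are neighbours transcribed away from each other, with 1355 bases between their starts, and Cd3e is the next protein-coding gene beyond Cd3d. Cd5 and Cd6 are neighbours too.

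Several facts of the arrays bear on the results. The 2 Rptor-null arrays correlated at 0.994 across genes on the log2 scale, and at 0.980 and 0.979 with the WT array. Genes are not independent replicates. Control probe sets at the 3' end over those at the 5' end gave 1.94 and 2.58 for Gapdh on the Rptor-null arrays, against 1.11 on the WT array, and 2.65 and 2.87 for beta-actin on the Rptor-null arrays, against 1.40 on the WT array. Rptor read 353 and 412 in Rptor-null pools and 365 in the WT pool (adjusted p = 0.824), on the brightest of its 3 probe sets. The place of that probe set relative to the deleted exons is not given, so that it checks nothing about the deletion. The dimmer Rptor probe sets are not described here. Macrophage and other myeloid markers were higher in the Rptor-null pools for 12 of 16 genes, against 3.93% of all genes. Their summed signal was 69866 and 77622 in Rptor-null pools, against 49381 in WT. None of the 16 was at 0. In WT they ran from 71.5 for Itgam to 14972 for Lyz2, with Cd4 at 696 and Foxp3 at 752. The WT pool thus carried strong myeloid signal too, and values of either group are those of a pool. The part of the 3' to 5' ratios or of the myeloid markers in the results above and below was not tested. In a pool of sorted cells, fewer cells of a type and less RNA per cell cannot be told apart.

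**Figure D1:**
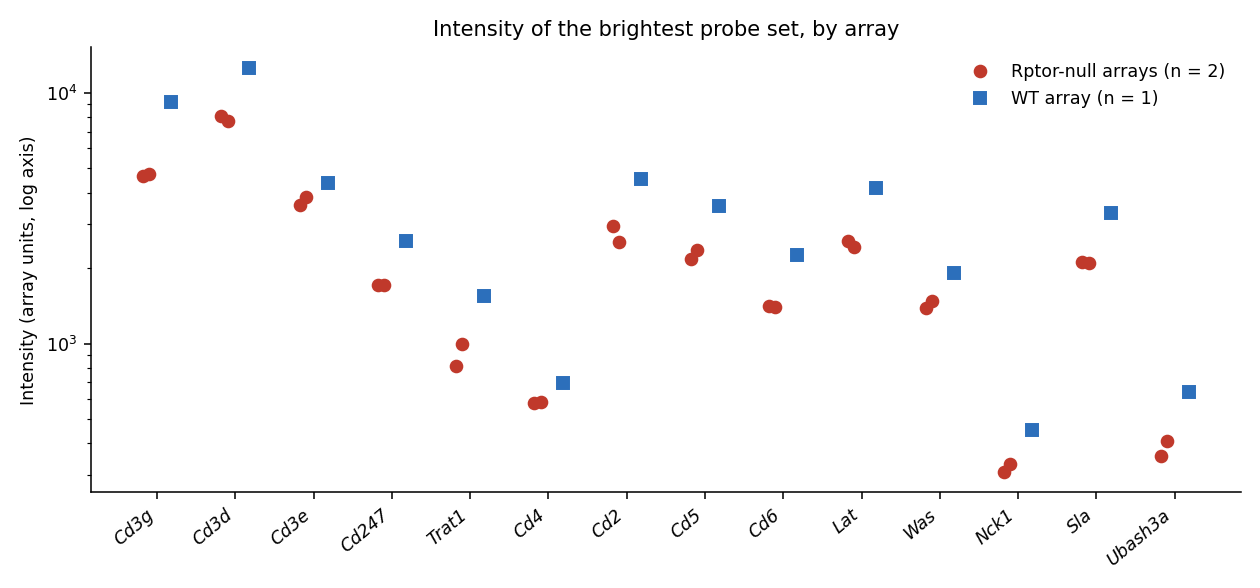
Intensity (array units, log axis) of the brightest probe set of 14 genes on the 2 Rptor-null arrays (red circles) and the WT array (blue squares). Both circles lie below the square for every gene shown, by 1.94-fold for Cd3g and by 1.17-fold and 1.19-fold for Cd3e and Cd4, the 2 genes shown that did not pass the test.

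In the receptor complex, 4 of 6 genes fell and 2 did not pass. Cd3g, which encodes the CD3 gamma chain, read 4657 and 4751 in the Rptor-null pools and 9143 in the WT pool. It was 1.94-fold lower, the largest drop among the brightest probe sets of the 41 genes (log2 difference -0.96 ± 0.080, SE; adjusted p = 0.00258). Both Rptor-null values were close together and far below WT. Cd3d, the CD3 delta chain, read 8079 and 7687 in Rptor-null pools, against 12582 in WT, and was 1.60-fold lower (adjusted p = 0.00441). Cd3e encodes the CD3 epsilon chain, which pairs with both gamma and delta in the receptor. It read 3575 and 3850.4 in Rptor-null pools, against 4347 in WT, and did not pass (log2 difference -0.23 ± 0.090, SE; adjusted p = 0.140). Its values thus lay below WT on both arrays, by less than those of the 2 chains it pairs with. The difference between the chains was not tested.

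Cd247 encodes the zeta chain, which carries most of the receptor's signalling motifs. On its brightest probe set it read 1713 and 1709 in Rptor-null pools, against 2563 in WT, or 1.49-fold lower (adjusted p = 0.0086). A second kept probe set, 1452539_a_at, read 240.1 and 149 in Rptor-null pools, against 1025 in WT, or 5.06-fold lower (log2 difference -2.34 ± 0.25, SE; adjusted p = 0.0103 over probe sets), the largest difference of any probe set of the list. Another kept probe set read 214 and 174 in Rptor-null pools, against 300 in WT (1.51-fold lower, adjusted p = 0.0861). All 3 lay below WT on both arrays, and the spread between the Rptor-null arrays was wide on 1452539_a_at. Which transcripts of Cd247 each probe set detects is not given in the sources used here.

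Trat1 encodes TRIM, a small transmembrane adaptor that associates with the TCR. It read 813 and 992 in Rptor-null pools and 1547 in WT (1.71-fold lower, adjusted p = 0.0115), and its second probe set lay below WT too (log2 difference -0.39, adjusted p = 0.167 over probe sets). Cd4, the coreceptor that brings Lck to the complex and 1 of the sort markers, read 579 and 587 in Rptor-null pools and 696 in WT. It did not pass (log2 difference -0.25 ± 0.11, SE; adjusted p = 0.190).

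All 3 accessory receptors fell, by close amounts. Cd2, an adhesion receptor that aids TCR signalling, read 2950 and 2536 in Rptor-null pools and 4534 in WT, 1.65-fold lower (adjusted p = 0.00752). Cd5, a scavenger-receptor-type protein that tunes TCR signals down, read 2166 and 2365 in Rptor-null pools, against 3536 in WT, 1.56-fold lower (adjusted p = 0.00748). Cd6, its relative and chromosomal neighbour, read 1414 and 1394 in Rptor-null pools, against 2249 in WT, 1.60-fold lower (adjusted p = 0.00611). For each of the 3 genes, both Rptor-null values lay below WT.

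The proximal kinases did not pass the test as genes: 0 of 4 were lower and 0 higher by limma. At an unadjusted p under 0.05 there was 1 on either side. Over all genes 11.1% were lower and 3.93% higher, and with 4 genes a count of 0 does not set the kinases apart. Fyn, a Src-family kinase related to Lck, read 1739 and 1664 in Rptor-null pools and 2063 in WT (adjusted p = 0.0953). Txk, a Tec-family kinase, read 281 and 298 in Rptor-null pools, against 306 in WT (adjusted p = 0.773). Tec, which gives that family its name and is also expressed in myeloid cells, read 535 and 593 in Rptor-null pools, against 447 in WT (log2 difference 0.32 ± 0.13, SE; adjusted p = 0.135), the most positive value of the 41 genes.

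Zap70, the kinase that docks on the receptor, differed by probe set. The brightest, 1440178_x_at, read 1618 and 1537 in Rptor-null pools, against 1721 in WT (log2 difference -0.13 ± 0.097, SE; adjusted p = 0.442). The probe set 1422701_at read 1117 and 1047 in Rptor-null pools, against 2021 in WT, 1.86-fold lower (log2 difference -0.89 ± 0.11, SE; adjusted p = 0.0112 over probe sets). The remaining one read 585 and 606 in Rptor-null pools, against 506 in WT (log2 difference 0.23, adjusted p = 0.310 over probe sets). The letter x in the ID of the brightest marks probes that can match other transcripts, and when probe sets with a, s or x in the ID were left out Zap70 passed as lower. Whether Zap70 was lower in the Rptor-null pools therefore depended on the probe set.

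**Figure D2:**
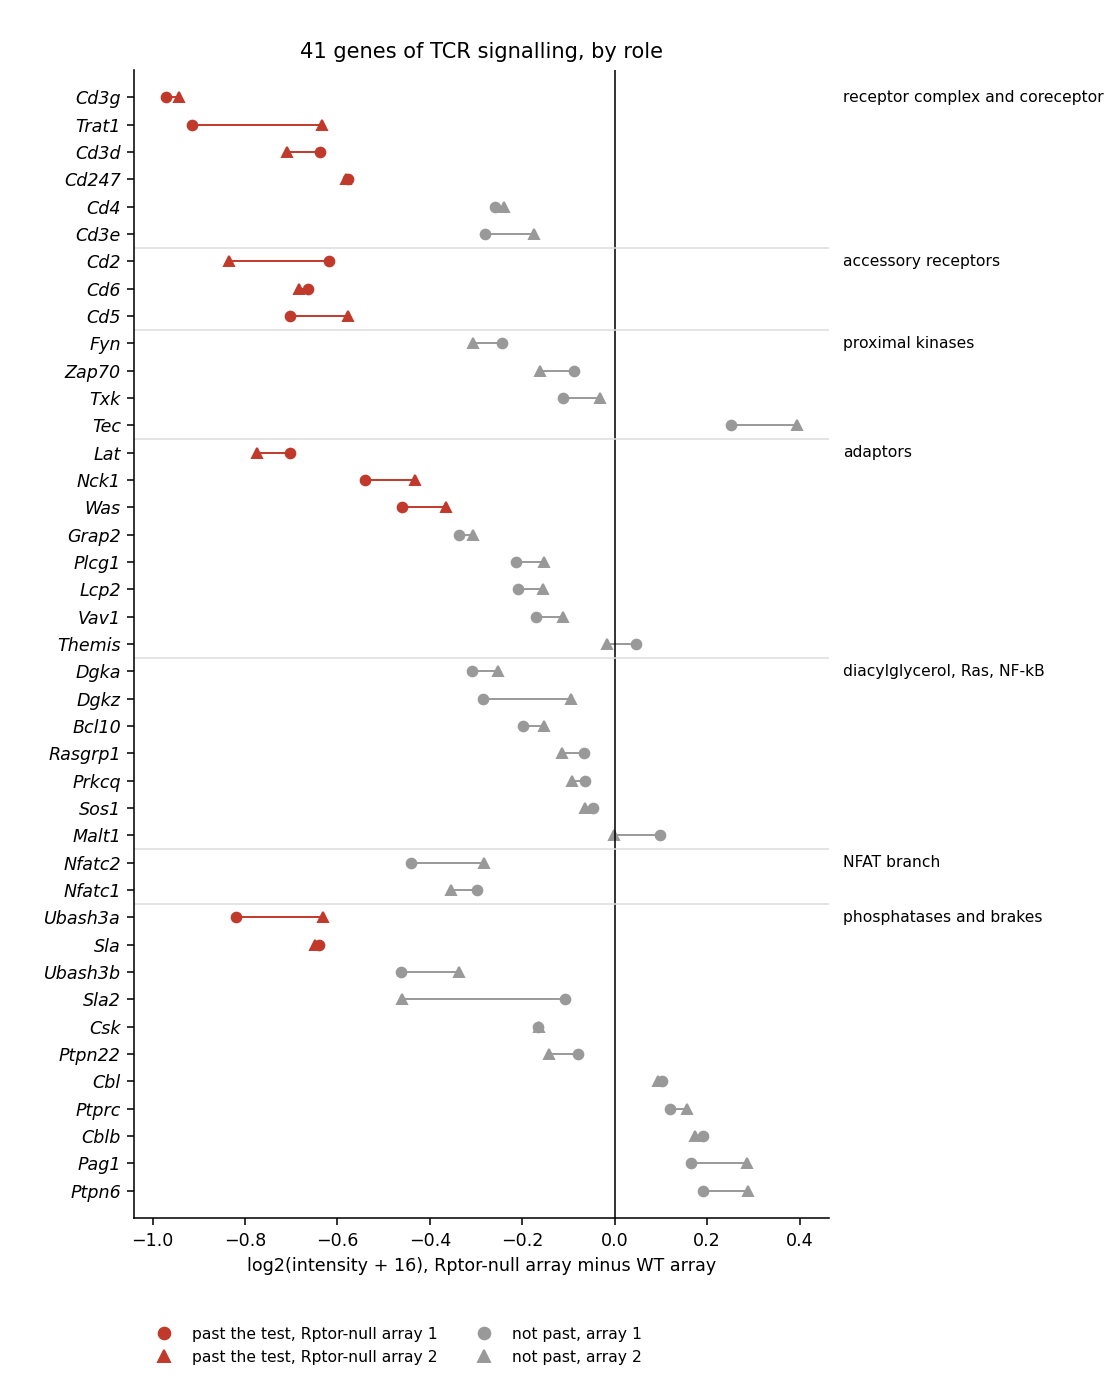
Difference in log2(intensity + 16) of each Rptor-null array from the WT array for 41 genes (rows), grouped by role, with circles for Rptor-null array 1 and triangles for array 2. Red marks the 12 genes past the test: they sit among the receptor complex, accessory receptors, adaptors and brakes, and both symbols of each lie left of 0.

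Among the adaptors and the enzymes they recruit, 3 of 8 fell and 5 did not pass. Lat, the membrane scaffold that ZAP-70 phosphorylates, read 2554 and 2429 in Rptor-null pools and 4165 in WT. It was 1.67-fold lower (log2 difference -0.74 ± 0.089, SE; adjusted p = 0.00441), with both arrays well below WT. Was, which encodes the actin regulator WASP, read 1385 and 1480 in Rptor-null pools, against 1912 in WT, 1.33-fold lower (adjusted p = 0.0315), and did not pass on quantile-normalized values (adjusted p = 0.112). Nck1, the adaptor that links SLP-76 to WASP, read 307 and 333 in Rptor-null pools, against 455 in WT, 1.40-fold lower, and stood at the threshold (adjusted p = 0.049). Nck1 did not pass in 5 of the alternatives, and its other 2 probe sets had log2 differences of -0.13 and -0.078.

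The other 5 genes of the platform did not pass. Lcp2, which encodes SLP-76, read 3509 and 3646 in Rptor-null pools and 4061 in WT (log2 difference -0.18, adjusted p = 0.204). Grap2, or GADS, which joins SLP-76 to LAT, read 111 and 114 in Rptor-null pools, against 145 in WT (log2 difference -0.32, adjusted p = 0.219). Plcg1, the phospholipase that makes the second messengers, read 1364 and 1422 in Rptor-null pools, against 1584 in WT (log2 difference -0.18, adjusted p = 0.258). The difference of Lat was larger than those of its partners here, a contrast that was not tested. Vav1, an exchange factor for Rac, read 293 and 306 in Rptor-null pools, against 331 in WT (log2 difference -0.14). Themis, an adaptor known from thymocyte selection, read 925 and 885 in Rptor-null pools, against 895 in WT, with 1 array on either side of WT, and its 4 probe sets ran from -0.13 to 0.042 on the log2 scale. A second kept Plcg1 probe set, at 39.98 and 41.1 in Rptor-null pools and 34.6 in WT, was near the filter on dim signals.

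On the diacylglycerol, Ras and NF-kB branch 0 of 7 genes passed by limma, against 11.1% of all genes lower, and 1, Dgka, had an unadjusted p under 0.05. The diacylglycerol kinase gene Dgka, whose product removes this messenger, read 3881 and 4036 in Rptor-null pools and 4812 in WT (log2 difference -0.28 ± 0.085, SE; adjusted p = 0.0655), and it passed with the 60th percentile filter. Its relative Dgkz read 5286 and 6031 in Rptor-null pools, against 6440 in WT (adjusted p = 0.256). Rasgrp1 and Sos1, exchange factors that load Ras, and Prkcq, the kinase PKC-theta, had log2 differences of -0.091, -0.056 and -0.079. Those 3 values and that of Txk turned above 0 after quantile normalization. A second kept Rasgrp1 probe set read 105 and 101 in Rptor-null pools, against 172 in WT (1.57-fold lower, adjusted p = 0.059 over probe sets). The brightest probe sets of the branch thus ran from -0.28 to 0.049 on the log2 scale, and none was past the test.

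Bcl10 and Malt1, partners that carry the signal to NF-kB, again differed by probe set. For Bcl10 the brightest probe set read 1333 and 1376 in Rptor-null pools and 1532 in WT (log2 difference -0.18, adjusted p = 0.277). Another, 1418972_at, read 177 and 168 in Rptor-null pools, against 321 in WT, 1.79-fold lower (adjusted p = 0.0249 over probe sets), and the other 2 had log2 differences of 0.087 and 0.20. For Malt1 the brightest read 1062 and 991 in Rptor-null pools, against 991 in WT (log2 difference 0.049, adjusted p = 0.805), and 1456126_at read 755 and 768 in Rptor-null pools, against 1174 in WT, 1.53-fold lower (adjusted p = 0.0243 over probe sets). The remaining Malt1 probe set read 174 and 124 in Rptor-null pools, against 118 in WT. Neither gene had its probe sets on 1 side of WT, and Bcl10 passed as lower when probe sets with a, s or x in the ID were left out.

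The NFAT genes did not pass on their brightest probe sets, 0 of 2 by limma, with both lower at an unadjusted p under 0.05. Beside 11.1% of all genes lower, a count of 0 among 2 genes does not set them apart. Nfatc1, which TCR signals themselves induce, had all 5 probe sets below WT. The brightest read 1175 and 1131 in Rptor-null pools and 1449 in WT (log2 difference -0.33 ± 0.10, SE; adjusted p = 0.0685). The probe set 1417621_at read 952 and 957 in Rptor-null pools, against 1427 in WT, 1.49-fold lower (adjusted p = 0.0257 over probe sets), and 1425761_a_at read 274 and 273 in Rptor-null pools, against 463 in WT, 1.65-fold lower (adjusted p = 0.0267). Nfatc1 passed when the mean of its probe sets was used. Nfatc2 read 484 and 543 in Rptor-null pools, against 663 in WT on its brightest (log2 difference -0.36, adjusted p = 0.10), and its other 2 kept probe sets lay above WT (log2 differences 0.23 and 0.27).

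Among the 11 phosphatases and other brakes, 2 fell, 0 rose and 9 did not pass. Sla, which encodes the adaptor SLAP that promotes loss of zeta chain from the surface, read 2117 and 2102 in Rptor-null pools and 3307 in WT. It was 1.56-fold lower (adjusted p = 0.00583) on its brightest probe set. The other 3 had log2 differences of -0.75, 0.083 and 0.44, and Sla did not pass on the mean of the 4 (adjusted p = 0.316). Ubash3a, which encodes the phosphatase family member STS-2, read 356 and 409 in Rptor-null pools, against 641 in WT, 1.65-fold lower (adjusted p = 0.0142). Its second probe set read 227 and 277 in Rptor-null pools, against 241 in WT, and the gene did not pass on the mean of both (adjusted p = 0.149). For both genes, 1 probe set alone was past the adjusted test.

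The remaining brakes lay on both sides of WT. Ubash3b, which encodes STS-1, read 552 and 603 in Rptor-null pools and 767 in WT (log2 difference -0.40, adjusted p = 0.0629), with all 3 probe sets below WT. Csk, the kinase that inhibits Lck, read 1772 and 1776 in Rptor-null pools, against 1991 in WT, and Ptpn22, a phosphatase that acts on Lck and ZAP-70, read 2164 and 2074 in Rptor-null pools, against 2289 in WT. Sla2 read 396 and 306 in Rptor-null pools, against 428 in WT, so that its Rptor-null arrays differed more from each other than 1 of them did from WT. None of these 4 passed, although Ubash3b did with the 60th percentile filter.

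The 5 brakes above WT were Ptpn6, Pag1, Cblb, Ptprc and Cbl, and none passed. Ptpn6, the phosphatase SHP-1, read 1947 and 2084 in Rptor-null pools and 1704 in WT (log2 difference 0.24, adjusted p = 0.146), while its second probe set read 1370.4 and 1526 in Rptor-null pools, against 1602 in WT. Pag1, which anchors Csk at the membrane, read 1362 and 1484 in Rptor-null pools, against 1214 in WT, with all 4 probe sets above WT. Ptprc, the pan-leukocyte phosphatase CD45, read 18573 and 19043 in Rptor-null pools, against 17092 in WT (log2 difference 0.14, adjusted p = 0.264), and 886 and 764 in Rptor-null pools, against 823 in WT, on its second probe set. CD45 is carried by every leukocyte and SHP-1 by most, and on these arrays the 16 myeloid markers had a median log2 difference of 0.78. Any part of myeloid cells in the Ptprc and Ptpn6 values was not tested. The ubiquitin ligase gene Cblb read 1385 and 1367 in Rptor-null pools, against 1211 in WT, and Cbl read 1958 and 1946 in Rptor-null pools, against 1823 in WT. Their probe sets fell on both sides of WT, from -0.14 to 0.18 and from -0.27 to 0.49 on the log2 scale.

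**Figure D3:**
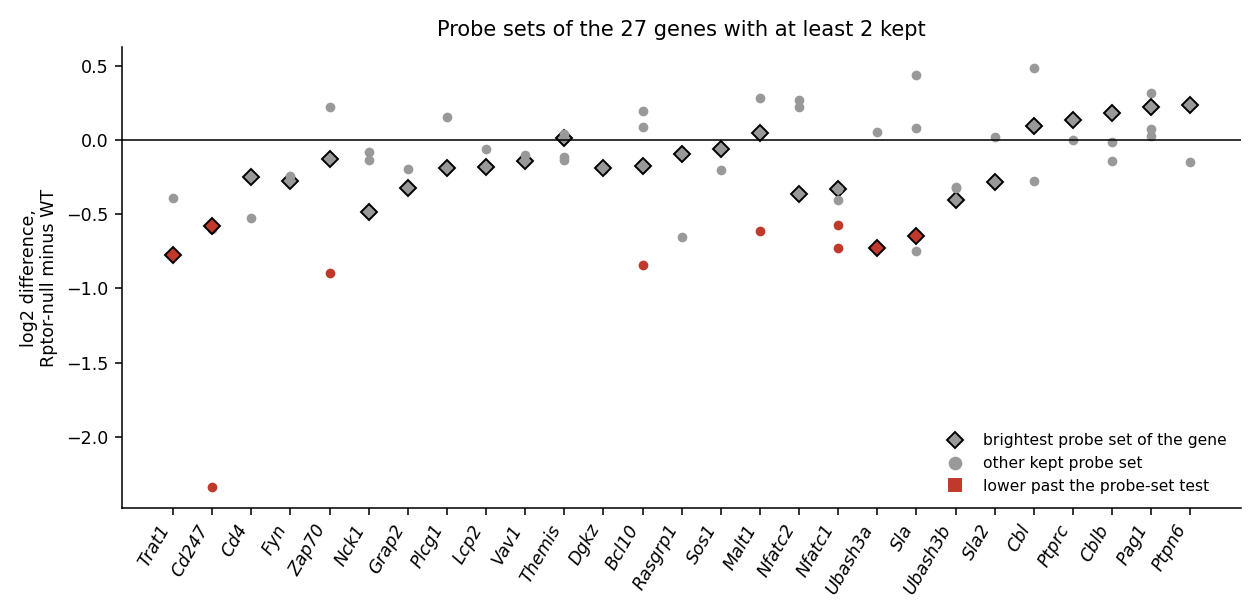
Difference in log2(intensity + 16), Rptor-null mean minus WT, for each kept probe set of the 27 genes with at least 2. Diamonds are the brightest probe set of a gene and red marks those lower past the probe-set test. The lowest point is a Cd247 probe set at -2.34, and red circles appear for Zap70, Bcl10, Malt1 and Nfatc1 beneath grey diamonds.

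Taken probe set by probe set, 16 of the 87 were lower and 0 higher by limma, adjusted over 27022 probe sets. These 16 belong to 14 genes, which include Zap70, Bcl10, Malt1 and Nfatc1. Nck1 and Was, lower as genes, did not pass by limma over probe sets (adjusted p = 0.0793 and 0.0561). At an unadjusted p under 0.05 there were 29 lower and 3 higher, against 16.4% and 8.56% of all probe sets. After adjustment, 6.04% of all probe sets were lower and 2.79% higher. Of the 27 genes with at least 2 kept probe sets, 14 had them all on the same side of WT, or 51.9%, against 2871 of all 5641 such genes, or 50.9%. The 3' to 5' ratios of Gapdh and beta-actin differed between the groups as given above, and their part in the disagreement between probe sets was not tested. The position of the probe sets along their transcripts is not given in the sources used here.

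Counted without a test, 33 of the 41 genes lay below WT in both Rptor-null arrays and 6 above in both, against 48.7% and 32.8% of all genes. The median log2 difference was -0.23 for the 41 genes and -0.059 for all genes. In the brightest 20% it was -0.19 for the 30 TCR genes there and -0.12 for all genes there. By role, the median was -0.67 for the accessory receptors, -0.63 for the receptor complex, -0.34 for the NFAT genes, -0.25 for the adaptors, -0.11 for the brakes, -0.099 for the kinases and -0.091 for the diacylglycerol, Ras and NF-kB branch. Differences between these roles were not tested. After quantile normalization the median was -0.14 for the 41 genes and -0.0076 for all genes.

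**Figure D4:**
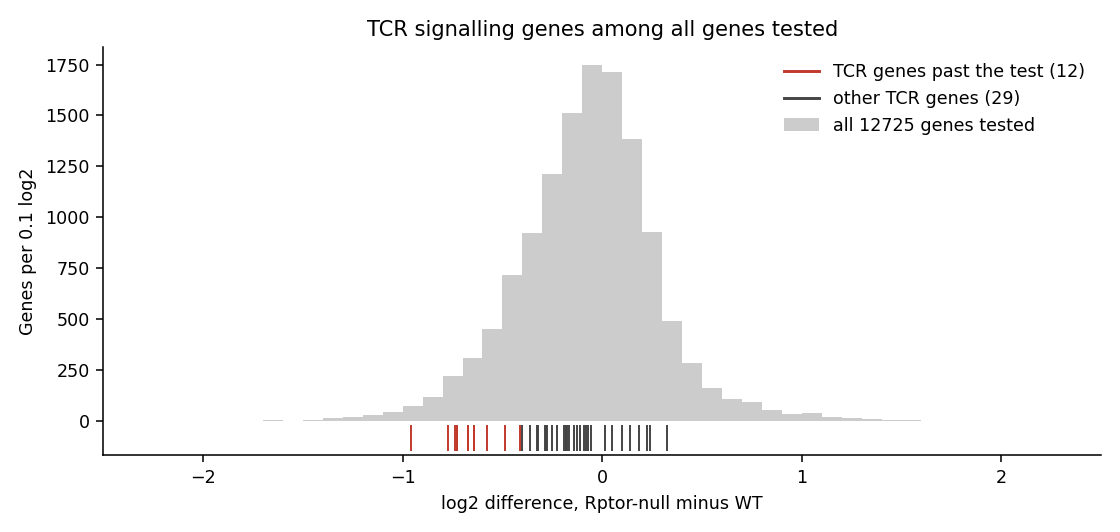
Histogram of the log2 difference (Rptor-null minus WT) of all 12725 genes tested, in bins of 0.1, with the 41 TCR signalling genes as ticks under it. The 12 genes past the test (red) reach from -0.96 to -0.41, and the other 29 (dark) from -0.40 to 0.32.

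Other genes of the pathway were read from 3 lists, whose counts stand beside 11.1% of all genes lower and 3.93% higher. Of 42 further proximal genes 36 were tested, with 9 lower, 2 higher and 25 not past the test. The largest differences past the test were those of Rac2, Gab2 and Ptprcap. Rac2, a small GTPase of blood cells that acts downstream of Vav1, read 2982 and 3109 in Rptor-null pools and 6482 in WT, 2.12-fold lower (adjusted p = 0.00249), but its second probe set had a log2 difference of 0.049. Gab2, an adaptor that dampens TCR signals and is widely used in mast and myeloid cells, read 657 and 739 in Rptor-null pools, against 326 in WT, 2.08-fold higher (adjusted p = 0.00441). The 3 kept Gab2 probe sets ran from 0.18 to 1.06 on the log2 scale, and the brightest was the highest. Ptprcap, which binds CD45, read 2641 and 2353 in Rptor-null pools, against 4287 in WT, 1.71-fold lower (adjusted p = 0.00503). The rise of Gab2 stood beside the higher myeloid markers, and a link between them was not tested.

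The calcium and calcineurin list had 16 genes tested, with 0 lower by limma (4 at an unadjusted p under 0.05), 1 higher and 15 not past. The higher gene was Ppp3ca, a catalytic subunit of calcineurin, with 1143 and 928 in Rptor-null pools and 697 in WT, 1.47-fold higher (adjusted p = 0.0381). The 3 kept Ppp3ca probe sets ran from 0.19 to 0.55 on the log2 scale, and the brightest was the highest. The Ras and MAP kinase list had 17 genes tested, with 1 lower and 2 higher. Rasal3, a Ras GTPase-activating protein of lymphocytes, was 1.35-fold lower (adjusted p = 0.0294; 0.109 after quantile normalization), and Map3k1 and Mapk14 were 1.41-fold and 1.33-fold higher (adjusted p = 0.0442 and 0.0403). The second kept Map3k1 probe set lay at -0.067 on the log2 scale, and the 5 of Mapk14 ran from 0.026 to 0.68. The median log2 differences of the 3 lists were -0.16, -0.19 and -0.073, against -0.23 for the 41 genes.

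The sorted identity was read from markers on the same arrays. Of 10 genes for the sort and for Tfr cells, 5 were lower, 0 higher and 5 did not pass by limma. The shares over all genes were 11.1% lower and 3.93% higher. At an unadjusted p under 0.05, 8 were lower and 1 higher. Foxp3 read 587 and 423 in Rptor-null pools and 752 in WT (adjusted p = 0.0789). The sort marker Cd44 went the other way, with 4383 and 4306 in Rptor-null pools and 3540 in WT (adjusted p = 0.0545). After quantile normalization Cd44 passed as higher (adjusted p = 0.0317) and Foxp3 did not pass (0.208). After median centring Cd44 passed as higher (adjusted p = 0.0112) and Foxp3 as lower (0.0229). The call of Foxp3 thus depended on the scaling. Summed over the 10 genes, the signal was 18142 and 16226 in Rptor-null pools and 26052 in WT. The 5 lower genes were Tnfrsf18 (GITR), Pdcd1, Icos, Ctla4 and Cxcr5, by 1.83-fold for Cxcr5 up to 2.54-fold for Tnfrsf18. CD8 T and NK cell markers had 1 lower (Cd8b1) and 1 higher (Eomes) of 10 tested, with sums of 23172 and 25205 in Rptor-null pools, against 22187 in WT, and Cd8a was dim at 38.8 and 45.0 in Rptor-null pools, against 46.5 in WT. B cell markers had 0 lower and 0 higher of 9 by limma (2 and 1 at an unadjusted p under 0.05), with sums of 13207 and 15758 in Rptor-null pools, against 14714 in WT. The sums of the 41 TCR genes were 90630 and 92035.0 in Rptor-null pools and 112089 in WT. Each of these 3 sums leaned on its brightest gene. For B cells it was Ighm (11900.5 and 14220 in Rptor-null pools, 13183 in WT). For CD8 T and NK cells it was Gzma (12303 and 14214 in Rptor-null pools, 11301 in WT). For the TCR genes it was Ptprc (18573 and 19043 in Rptor-null pools, 17092 in WT). The part of a shifted cell mix in the lower TCR genes was not tested.

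**Figure D5:**
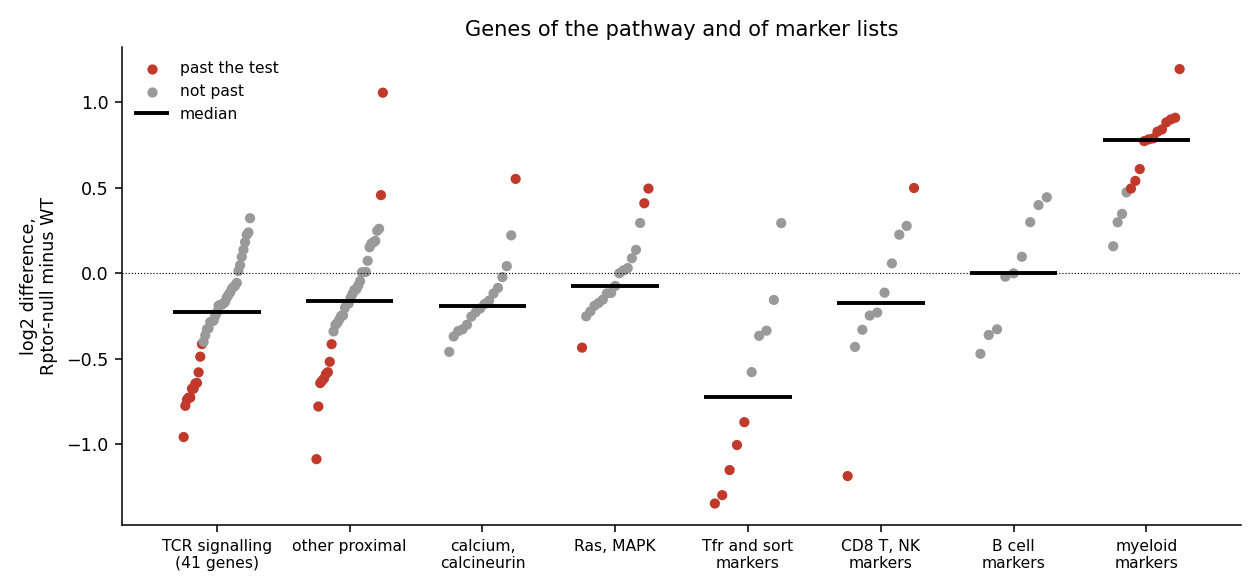
Log2 difference (Rptor-null minus WT) of each tested gene in the TCR list, 3 further pathway lists and 4 marker lists, sorted within a list, with red for genes past the test and a bar at the median. The median is -0.23 for the TCR genes, -0.72 for Tfr and sort markers and 0.78 for myeloid markers.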

How the data were processed

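RNA of sorted Tfr cells was hybridized to 3 Affymetrix arrays, each with 1 label and 45101 probe sets. The authors deposited linear intensities, and per the submitters' processing notes MAS5 was among the tools. Its version, any scaling target and the background correction are not given in the sources used here. Median intensity was 55.0 and 54.9 on the Rptor-null arrays and 52.8 on the WT array. Precision is limited by how few arrays there are.

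A probe set took its gene from the platform table where that gave 1 symbol (34945 probe sets, with 932 of several symbols and 9160 unnamed). Intensities became log2(intensity + 16), so folds understate changes of dim genes. The 64 controls were left out, as was any probe set not above the 40th percentile of level (34.8), and the brightest probe set stood for a gene. Differences were fitted with limma 3.58.1 in R 4.3.3 (lmFit, eBayes with trend), two-sided, with Benjamini-Hochberg adjustment over 12725 genes, and separately over 27022 probe sets. The 1 residual degree of freedom comes from the Rptor-null arrays (prior 6.46), and WT is taken to vary as they do. An exact permutation of 3 arrays could not go below a one-sided p of 0.333. The labels call the Rptor-null arrays biological replicates. The fit was tested on simulated data in which WT was given the spread of the Rptor-null arrays. That assumption itself was therefore not tested.

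Genes and lists were chosen with earlier results of these data known. Every gene of the list was described, with values for those past the test, the receptor chains and those whose probe sets disagreed, and the 3 largest differences past the test in each further pathway list. Symbols without a probe set of that symbol alone were not analysed here. Alternatives covered pseudocounts, filters, scalings, probe-set choice, variance priors, a threshold of 0.1, folds and arrays left out.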

Additional observations from a re-analysis of the deposited data

How the results depend on the processing

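The direction of the 12 lower TCR genes held in all 131 recomputations of single genes, and 122 of these stayed past the test. Some recomputations could not have come out otherwise, so these counts overstate how far the results were tried. A threshold of 0.1 keeps every gene already under 0.05, and a changed variance prior leaves the log2 difference as it was. The mean of probe sets also leaves it unchanged for a gene with 1 kept probe set. The 9 losses were 5 for Nck1, 2 for Was, and 1 each for Sla and Ubash3a; Cd6 has no probe set left without those with a, s or x in the ID. Between 10 and 16 TCR genes were lower and 0 higher under the 11 alternatives of the test. The median log2 difference of the 41 genes was -0.17 after median centring and -0.14 after quantile normalization, and it lay between -0.24 and -0.17 with either Rptor-null array left out. The 8 genes at least 1.5-fold lower in both arrays became 5 after median centring, 3 after quantile normalization and 0 at 2-fold, and 8 to 9 with 1 array left out. Over all genes the calls were 770 lower and 300 higher without a variance trend, 695 and 524 after quantile normalization and 1594 and 877 after median centring. Leaving out an array left no residual degree of freedom, so those values have no test. No paired analysis was possible because the WT group is 1 array. The WT array's own spread could not be measured.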
